A study of Rattus norvegicus with 6 samples.

Results

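Cardiac macrophages were followed through 10 marker genes, Cd68, Cd163, Mrc1, Adgre1, Csf1r, Lyz2, Fcer1g, Cd14, Aif1 and Tyrobp, in left atria of adult male Sprague-Dawley rats. The genes were chosen by name, and each had 1 probe set whose only gene symbol was its own, so all 10 were measured among the 11237 genes that passed the signal filter, which asked for 1 array or more with a log2 signal over 5. The atria of RAP rats were paced rapidly (cycle length 70 ms) and those of Con rats at a control rate (140 ms), in both cases for 48 hours, with 3 rats per group and 1 Affymetrix Rat Gene 1.0 ST array per rat. All rats carried an electrode on the right atrium, drank atenolol, which slows atrioventricular conduction, and received heparin before sacrifice. By the study's account the ventricles beat at a like rate in both groups. Each RAP rat had a control that was operated on, recovered and paced beside it at the same time, and these pairs are numbered 1 to 3. The values are log2 signals, and every change is RAP minus Con. "Rose" and "fell" are kept for genes past the thresholds of the study's methods (fold change over 1.3 and p below 0.05 before adjustment) when limma was fitted with a term for the pair.

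Macrophages of the heart are phagocytes that clear debris and dying cells, present antigen and exchange signals with cardiomyocytes and fibroblasts. In rodents a resident population, marked by the mannose receptor Mrc1 and the scavenger receptor Cd163, renews itself locally, while other macrophages arise from blood monocytes that are recruited through the chemokine receptor Ccr2. Signals through Csf1r keep both kinds alive. The transcription factor PU.1, encoded by Spi1, drives many macrophage genes from DNA sites around the core GAGGAA.

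Promoters of the marker genes are shown for this core. Whether PU.1 has a part in the values below was not tested. RefSeq promoters of the GRCr8 build, 300 bases around a start site of each gene, were found for 7 of the 10 genes (Cd68, Cd163, Mrc1, Adgre1, Csf1r, Lyz2 and Cd14). For Cd163, Adgre1, Csf1r, Lyz2 and Cd14 that site lies inside the gene's bounds in the current RefSeq gene table. The Cd14 window lies wholly within these bounds, and most of the Csf1r window does. The letters GAGGAA or their reverse complement TTCCTC stood in 6 of the 7 (85.7%) and in 27.6% of the 33469 promoters of the same length. A match is a string of letters and not a measured binding site. Below, 4 promoters are printed 5′ to 3′ on the gene's own strand with the core in capitals, those of the general marker Cd68 (chr10:54882392-54882691, minus strand), the lysozyme gene Lyz2 (chr7:54797962-54798261, minus strand) and the resident markers Mrc1 (chr17:82157475-82157774, plus strand) and Cd163 (chr4:158770524-158770823, plus strand).
Cd68: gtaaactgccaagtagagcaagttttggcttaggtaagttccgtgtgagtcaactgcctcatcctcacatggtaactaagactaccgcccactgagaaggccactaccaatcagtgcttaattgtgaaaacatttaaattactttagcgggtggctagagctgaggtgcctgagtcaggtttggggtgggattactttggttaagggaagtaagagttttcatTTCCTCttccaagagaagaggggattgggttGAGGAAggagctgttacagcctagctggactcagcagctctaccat
Lyz2: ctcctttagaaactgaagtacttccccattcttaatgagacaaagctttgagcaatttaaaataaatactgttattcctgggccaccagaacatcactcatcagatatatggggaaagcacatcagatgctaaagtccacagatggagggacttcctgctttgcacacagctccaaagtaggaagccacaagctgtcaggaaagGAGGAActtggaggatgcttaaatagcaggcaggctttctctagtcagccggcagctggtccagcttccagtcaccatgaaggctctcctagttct
Mrc1: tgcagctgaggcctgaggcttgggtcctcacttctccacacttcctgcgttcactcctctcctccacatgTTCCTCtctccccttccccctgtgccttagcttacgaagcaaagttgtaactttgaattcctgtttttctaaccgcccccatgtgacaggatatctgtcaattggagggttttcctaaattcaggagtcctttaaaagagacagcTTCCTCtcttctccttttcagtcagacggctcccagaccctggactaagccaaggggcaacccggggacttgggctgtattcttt
Cd163: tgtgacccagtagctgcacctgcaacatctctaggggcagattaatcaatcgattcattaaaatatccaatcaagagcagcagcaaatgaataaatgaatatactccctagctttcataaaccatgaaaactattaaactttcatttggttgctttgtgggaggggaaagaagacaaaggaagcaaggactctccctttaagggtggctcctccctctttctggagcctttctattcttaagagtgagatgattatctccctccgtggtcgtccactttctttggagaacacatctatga
The core began 46 bases before the window's start site in Lyz2, 27 bases before and 4 bases after it in Cd68, and 180 and 35 bases before it in Mrc1. In Lyz2 this position lies within the gene's bounds in the current RefSeq gene table. These letters were not in the window of Cd163.

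All 10 marker genes had a lower mean signal in RAP than in Con atria, but 0 of them passed the thresholds. The background for that count is 6.39% of the 11237 genes called in either direction (718 genes), with 3.45% lower and 2.94% higher, or 5.93% of the 19907 probe sets. The median change of the 10 genes was -0.54, beside -0.01 over all genes, with single changes between -0.84 (Cd68) and -0.29 (Csf1r). The smallest unadjusted p among them was 0.0890 (Fcer1g), and Benjamini and Hochberg's adjusted p ranged from 0.756 to 0.904 in limma. By the methods' paired t-test also 0 of the 10 passed, beside 2.08% of all genes, with a smallest p of 0.268. Over all genes limma called 0 at an adjusted p under 0.05, while 774 had an unadjusted p under 0.05. In bulk atrial tissue fewer macrophages and less of these transcripts per macrophage cannot be told apart.

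The 3 pairs did not run the same way. In pair 1 all 10 genes were lower in the RAP atrium, with a median change of -0.48. In pair 2 all 10 were lower as well, by more, with a median of -1.51 and a range from -2.42 (Cd14) to -1.04 (Csf1r). In pair 3 only Fcer1g was lower (-0.05), which made it the 1 marker gene lower in all 3 pairs (14.1% of all genes were), and the other 9 were higher in the RAP atrium, up to 1.25 (Cd163), with a median of 0.50. Of all genes, 21.7% were lower in pairs 1 and 2 and higher in pair 3, and the median over all genes was 0.00, -0.02 and 0.01 in pairs 1, 2 and 3. Set against all genes of its own pair, 1 marker gene lay below the 5th percentile in pair 1 (Cd68) and 9 did in pair 2, while 3 lay above the 95th percentile in pair 3 (Cd163, Cd14 and Mrc1).

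**Figure D1:**
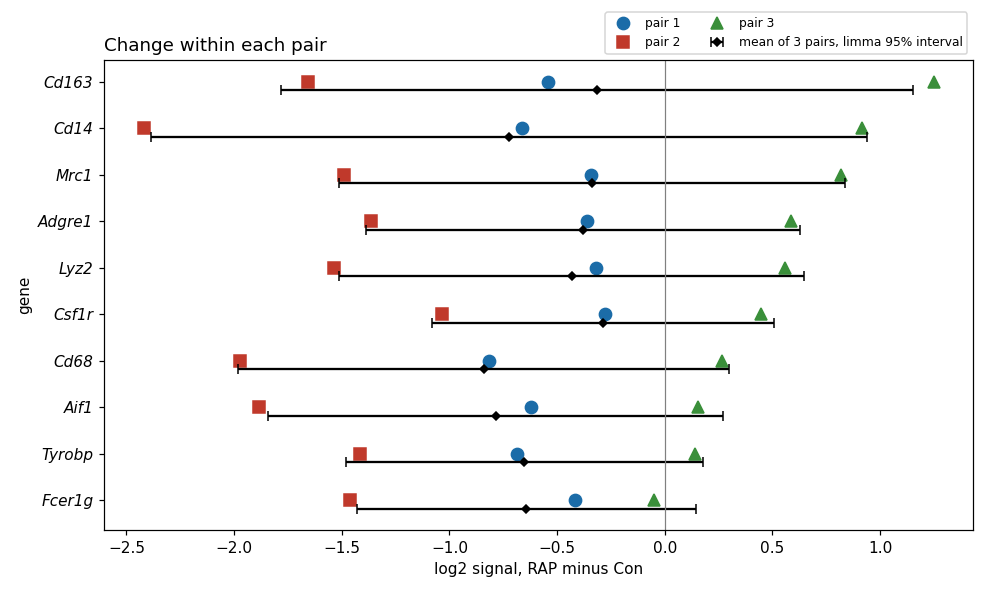
Change of each marker gene (y axis, ordered by its change in pair 3) within pairs 1, 2 and 3 as log2 signal, RAP minus Con (x axis), with the mean of the 3 pairs and limma's 95% confidence interval in black. The pair 2 points lie between -2.42 and -1.04 and the pair 3 points between -0.05 and 1.25, and every interval includes 0.

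The array farthest from the genes' own means was that of 1 control rat, Con 2, except for Cd14, where it was RAP 2 (-1.295, against 1.125 in Con 2). Con 2 had the highest signal of the 6 arrays for 10 of the 10 genes, where 19.2% of all genes had their highest value. It stood 1.07 above the genes' own means on average, between 0.74 (Csf1r) and 1.29 (Cd68). RAP 1 (-0.36), RAP 2 (-0.56) and Con 3 (-0.40) stood below these means for each of the 10 genes. RAP 3 (0.11) and Con 1 (0.14) stood close to them on average only. RAP 3 ranged from -0.26 (Fcer1g) to 0.62 (Cd163), and Con 1 from -0.12 (Mrc1) to 0.43 (Cd14). RAP 2 was the lowest array for 6 genes (25.2% of all genes), Con 3 for Adgre1, Csf1r and Lyz2, and RAP 1 for Tyrobp. The gap between the highest and the lowest array ranged from 1.11 (Csf1r) to 2.42 (Cd14) on the log2 scale, and the SD over the 6 arrays put the 10 genes between the 84.3 and the 98 percentile of all genes.

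**Figure D2:**
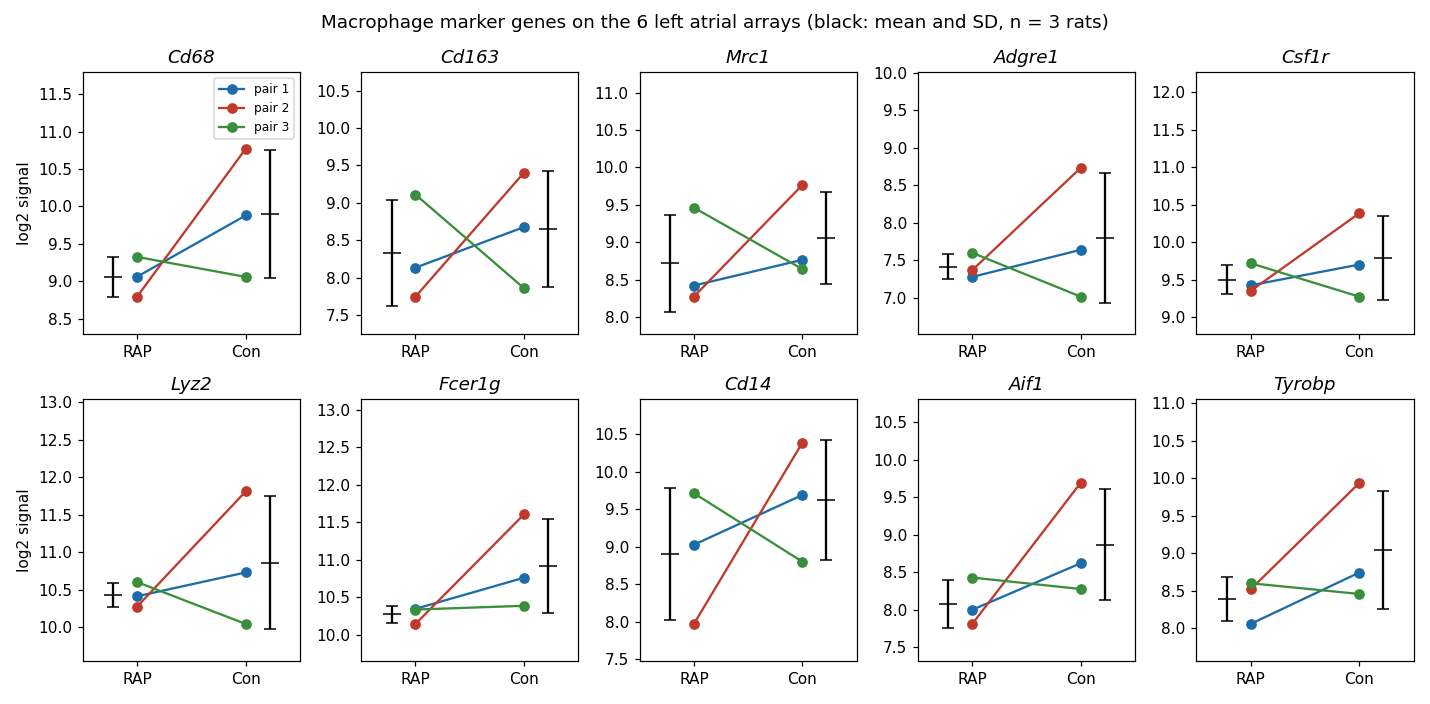
Log2 signal (y axis, every panel spanning the same number of log2 units) of the 10 marker genes in RAP and Con atria, where lines connect paired rats and black marks give the mean and SD of a group (n = 3 rats). Con 2 is the top point in all 10 panels, and the line of pair 3 slopes against the other 2 in all panels but that of Fcer1g.

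The general phagocyte markers are Cd68, Lyz2 and Adgre1. Cd68, a heavily glycosylated protein of the lysosome membrane, had log2 signals of 9.06, 8.80 and 9.33 in RAP 1, 2 and 3, against 9.88, 10.77 and 9.06 in Con 1, 2 and 3. Con 3 lay among the RAP rats, and the groups overlapped through this control alone. The change of -0.84 (SE 0.44, 95% interval -1.98 to 0.30, adjusted p = 0.770 in limma) was the largest of the 10 in size. Lyz2 encodes lysozyme, which cuts bacterial cell walls. It had 10.41, 10.27 and 10.60 in RAP 1, 2 and 3, against 10.73, 11.81 and 10.04 in Con 1, 2 and 3. Its RAP rats were close to one another (SD 0.16) and its controls spread widely (SD 0.89), from the lowest to the highest value of all 6. The change was -0.43 (SE 0.41, 95% interval -1.51 to 0.65). Other lysozyme genes lie on the same chromosome 7, and their share in this probe set was not tested.

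Adgre1, an adhesion receptor used as a macrophage marker in mice, had 7.28, 7.37 and 7.60 in RAP 1, 2 and 3, against 7.64, 8.74 and 7.01 in Con 1, 2 and 3. As for Lyz2, the RAP values were tight (SD 0.17) and fell inside the range of the controls (SD 0.87). Its change was -0.38 (SE 0.39). Without Con 2 and the block it stood at 0.09, and Lyz2 at 0.04, so the sign of both rests on that rat.

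The resident markers Mrc1 and Cd163 were high in RAP 3, which was the array second to Con 2 for them and for Cd14 and Csf1r. Mrc1, which takes up mannose-rich glycoproteins, had 8.42, 8.28 and 9.46 in RAP 1, 2 and 3, against 8.77, 9.77 and 8.64 in Con 1, 2 and 3. Cd163, which binds haptoglobin-haemoglobin complexes, had 8.14, 7.75 and 9.11 in RAP 1, 2 and 3, against 8.68, 9.41 and 7.86 in Con 1, 2 and 3. In both genes the groups overlapped over most of their range. The mean changes of -0.34 (Mrc1, SE 0.45) and -0.32 (Cd163, SE 0.56) were smaller than their SE, and turned to 0.24 and 0.35 without pair 2. The RAP 3 atrium exceeded its control 2.38-fold in Cd163 and 1.76-fold in Mrc1, whereas the RAP 2 atrium lay 3.15-fold and 2.81-fold below its control.

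Csf1r, the receptor for the products of Csf1 and Il34, was the least variable of the 10. It had 9.42, 9.35 and 9.72 in RAP 1, 2 and 3, against 9.70, 10.39 and 9.27 in Con 1, 2 and 3. RAP 3 lay just above Con 1, and Con 3 was the lowest of all. Its change was -0.29 (SE 0.30, 95% interval -1.08 to 0.50).

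Cd14, a coreceptor that hands endotoxin to Tlr4, was the most variable. It had 9.03, 7.97 and 9.72 in RAP 1, 2 and 3, against 9.69, 10.39 and 8.80 in Con 1, 2 and 3. RAP 3 lay above Con 1 and RAP 2 was the lowest of all, and within pair 2 the RAP atrium lay 5.35-fold below its control. The change was -0.72 (SE 0.64, 95% interval -2.38 to 0.94), with the largest SE of the 10. Aif1, the calcium-binding protein Iba1 of activated macrophages, had 8.0, 7.81 and 8.43 in RAP 1, 2 and 3, against 8.62, 9.70 and 8.28 in Con 1, 2 and 3. Only Con 3 fell below a RAP value, that of RAP 3, and the change was -0.78 (SE 0.41, 95% interval -1.84 to 0.27).

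Fcer1g and Tyrobp are short transmembrane adaptors that carry the signal of activating receptors through an ITAM, a tyrosine motif that recruits the kinase Syk. Fcer1g had 10.34, 10.14 and 10.33 in RAP 1, 2 and 3, against 10.76, 11.60 and 10.38 in Con 1, 2 and 3. It was the single marker gene whose groups did not overlap, with RAP 1 just below Con 3, and 7.85% of all genes had every RAP array below every Con array (7.57% had them above). Its change was -0.64 (SE 0.30, 95% interval -1.43 to 0.14). The p in limma was 0.0890, and the exact two-sided permutation test over the 6 arrays gave p = 0.1. That is the smallest p this permutation test allows with 3 against 3, and groups that do not overlap always give it. It therefore adds nothing to the lack of overlap, and the permutation test ignores the pairs. For the other marker genes the same exact permutation test gave p = 0.2 (Aif1) to 0.7 (Csf1r). Tyrobp (DAP12) had 8.06, 8.52 and 8.60 in RAP 1, 2 and 3, against 8.74, 9.94 and 8.46 in Con 1, 2 and 3. Con 3 lay below RAP 2 and RAP 3, and the change was -0.65 (SE 0.32, 95% interval -1.48 to 0.18).

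Leaving out a pair or a rat changed the calls of the marker genes. Without pair 3 all 10 fell, with a median of -0.995, and 12.7% of all genes fell in the same setting. Without Con 3 alone and with no block, Cd68, Lyz2, Fcer1g, Aif1 and Tyrobp fell (5 of 10, median -0.88, beside 8.55% of all genes). Without pair 2 the median was 0.10, with 6 genes higher and 4 lower and 0 called, and without Con 2 alone, with no block, it was -0.10 with 0 called. With array weights, which weight pair 1 at 4.91, pair 2 at 0.62 and pair 3 at 0.33, Cd68, Fcer1g, Aif1 and Tyrobp fell (4 of 10, beside 13.3% of all genes). In that fit Tyrobp reached an adjusted p of 0.0466 in limma, and the other genes called had 0.0550 (Cd68) to 0.0981 (Fcer1g). The adjusted p in limma was 0.170 to 0.254 for the genes that fell without pair 3. It was 0.2 to 0.352 for those that fell without Con 3. Within a pair both arrays necessarily share 1 weight. With no block and without RAP 3 alone the median was -0.71 with 0 called. Con 3 had the highest erythroid markers, 1.86 above the genes' means over 6 genes, with the other arrays between -0.79 and -0.14. The part of blood in the marker genes' values was not tested.

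**Figure D3:**
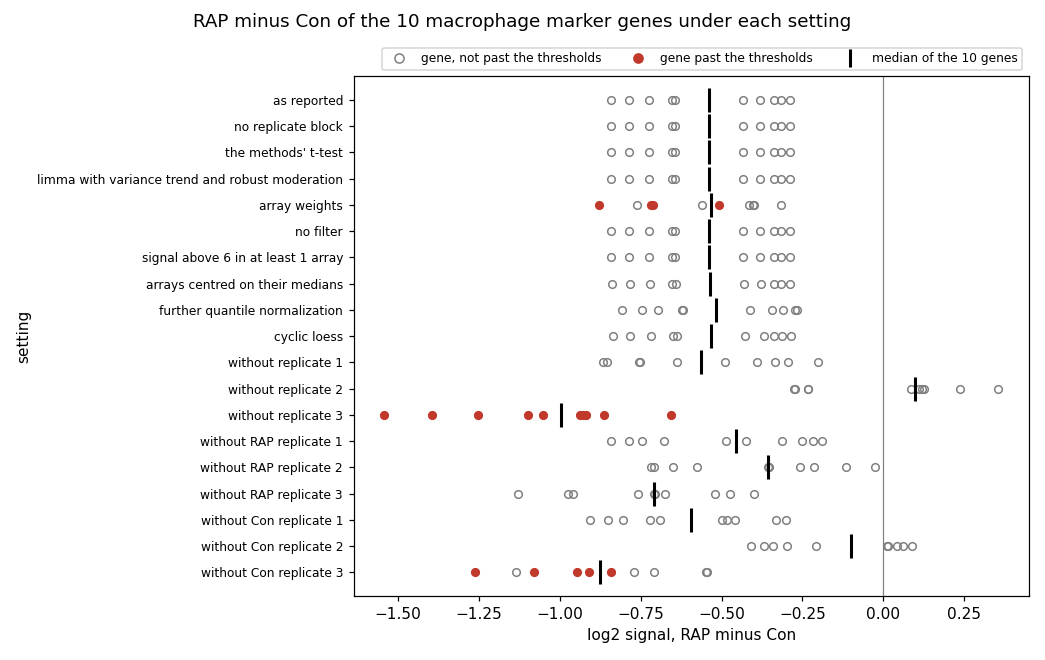
Change of the 10 marker genes (circles, log2 signal, RAP minus Con, x axis) under the reported fit and each alternative (y axis), filled where past the thresholds, with the median as a bar. The medians lie between -0.56 and -0.52 with the weighting and the scalings tried and without pair 1, at -0.995 without pair 3 and at 0.10 without pair 2.

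Across the 6 arrays the marker genes varied together. Pearson's r between any 2 of them ranged from 0.69 (Cd14 and Tyrobp) to 0.99 (Adgre1 and Lyz2), with a median of 0.91 over 45 pairs of genes. These are 6 points that share arrays, with Con 2 far from the rest. Without Con 2 the range was 0.24 (Mrc1 and Fcer1g) to 0.95 (Cd163 and Csf1r) with a median of 0.70. Mrc1 and Cd163 were correlated at 0.94 with each other over 6 arrays and at a median of 0.83 with the other 8, which had a median of 0.92 among themselves. Without Con 2 these 3 values were 0.90, 0.70 and 0.69, and without Con 2 and RAP 2 they were 0.85, 0.59 and 0.75. The lowest r between any 2 marker genes was then -0.13 (Mrc1 and Fcer1g).

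Genes that followed the mean of the 10 markers most closely, by Pearson's r over the 6 arrays, were Cotl1, an actin-binding protein, and Csf2rb, the shared chain of the GM-CSF and interleukin 3 receptors, followed by Pla2g2d, a secreted phospholipase, the UDP receptor P2ry6 and Nfya, a subunit of the factor that binds CCAAT. Next came Folr2, the folate receptor of resident macrophages, Wipf1, Ctsz, a lysosomal protease, Cybb, the catalytic subunit of the phagocyte NADPH oxidase, and Kif21b. For these 10 genes r lay between 0.991 and 0.996, and 3.88% of the 11227 other genes exceeded an r of 0.9. Cotl1 had log2 signals of 7.42, 7.15 and 8.09 in RAP 1, 2 and 3, against 8.06, 9.11 and 7.29 in Con 1, 2 and 3. Its highest array was Con 2 and its lowest RAP 2, as for Cd68.

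Resident markers were set against other genes in 2 ways. First, the mean log2 deviation of Mrc1 and Cd163 was compared with that of the other 8 marker genes on each array. These 8 include general phagocyte markers and Csf1r, which serves both kinds, so they do not stand for recruited cells. The difference was -0.06, -0.15 and 0.61 in RAP 1, 2 and 3, against -0.13, -0.22 and -0.05 in Con 1, 2 and 3. Only RAP 3 stood apart, with Mrc1 and Cd163 at 0.60 and the other 8 at -0.01, although Cd14 among these 8 stood at 0.45. RAP minus Con was 0.08, 0.06 and 0.66 in pairs 1, 2 and 3, a mean of 0.27 (SD 0.34 over pairs), which was 0.03 without RAP 3. Second, genes outside the 10 were used, with 11 of 13 listed resident genes and 10 of 12 listed genes of recruited monocytes measured. The resident list minus the recruited list stood at 0.07, -0.31 and -0.14 in RAP 1, 2 and 3, against 0.46, -0.14 and 0.06 in Con 1, 2 and 3. RAP minus Con was -0.38, -0.17 and -0.20, a mean of -0.25 (SD 0.11 over pairs). This difference had the opposite sign to that of Mrc1 and Cd163 in each pair, but the 2 compare unlike sets of genes. Neither difference was tested, since the genes were chosen with results of these arrays known.

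**Figure D4:**
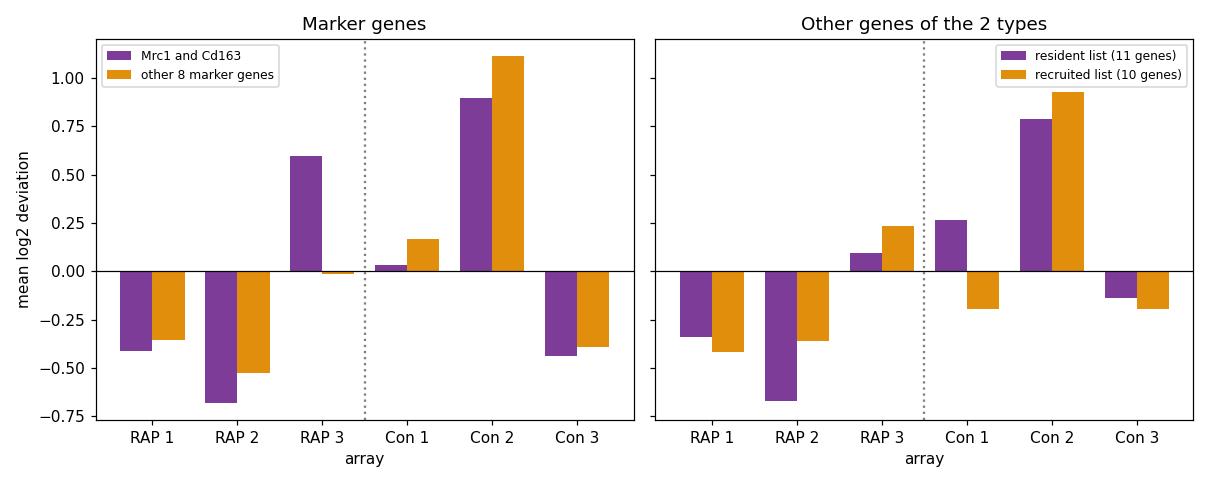
Mean log2 deviation from the genes' own means (y axis) on each array (x axis) of Mrc1 and Cd163 beside the other 8 marker genes (left), and of the resident beside the recruited list without marker genes (right). On the left the bars part in RAP 3 (0.60 and -0.01), and on the right the widest gaps are in RAP 2 (-0.67 and -0.36) and Con 1 (0.26 and -0.19).

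Of the 11 measured resident genes 3 fell and 0 rose with RAP (median change -0.31, with 11 of 11 lower). For the counts of this list and of the lists below, 3.45% of all genes fell and 2.94% rose. Vsig4, a complement receptor of resident macrophages, fell by 1.5 (SE 0.49). It had 4.60, 5.04 and 5.16 in RAP 1, 2 and 3, against 5.86, 7.93 and 5.53 in Con 1, 2 and 3. Its RAP 1 value lay under the signal level of 5, and those of RAP 2 and RAP 3 lay near it. Pf4, a chemokine of platelets that resident macrophages also make, fell by 1.16 (SE 0.19) and had 8.14, 7.75 and 8.05 in RAP 1, 2 and 3, against 8.88, 9.19 and 9.36 in Con 1, 2 and 3. Maf, a transcription factor of differentiated macrophages, fell by 1.10 (SE 0.26). These 3 genes were lower with RAP in pair 3 as well, as a paired test selects for. In each of them every control lay above every RAP atrium. Of all genes, 7.85% had every RAP array below every Con array. Lyve1, the hyaluronan receptor of resident macrophages and lymphatic vessels, was likewise high in RAP 3. It had 9.60, 8.74 and 10.53 in RAP 1, 2 and 3, against 10.09, 9.98 and 9.68 in Con 1, 2 and 3 (change -0.29, SE 0.42). Folr2 had a change of -0.75 (SE 0.56), Cx3cr1, the fractalkine receptor, of -0.26 (SE 0.13) and Mertk, a receptor for dying cells, of -0.18 (SE 0.26). Timd4 has no probe set under its symbol alone.

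Of the 10 measured genes of recruited monocytes 1 fell and 0 rose (median change -0.33). Ccr2 went against the marker genes in pair 1, with 6.39, 6.95 and 8.36 in RAP 1, 2 and 3, against 6.09, 8.22 and 6.54 in Con 1, 2 and 3, and its change was 0.28 (SE 0.59). RAP 3 and Con 2 were its highest arrays, as for Mrc1 and Cd163. Itgam, the CD11b integrin chain, had a change of -0.28 (SE 0.53) with the signs of the marker genes, -0.09, -1.73 and 0.98 in pairs 1, 2 and 3. Plac8, a small cysteine-rich protein of leukocytes, fell by 0.81 (SE 0.13) and by a like amount in each pair (-0.92, -0.82 and -0.68).

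Genes around Csf1r and the adaptors had mostly the signs of the marker genes. Of 8 measured genes of the CSF1 receptor axis 1 fell, Cebpb, a transcription factor of inflammatory gene control (-0.46, SE 0.14), and 0 rose. The ligands Csf1 (-0.33, SE 0.17) and Il34 (-0.43, SE 0.32) and the transcription factor gene Spi1 (-0.38, SE 0.24) did not pass. Spi1 had 6.72, 6.89 and 7.01 in RAP 1, 2 and 3, against 7.04, 7.85 and 6.87 in Con 1, 2 and 3, with Con 2 highest as in the marker genes. Of 11 measured receptors and kinases that work with Fcer1g or Tyrobp 0 passed (median change -0.32), and Trem2, a lipid receptor that signals through Tyrobp, had a change of -0.69 (SE 0.32).

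The partners of Cd14 were mixed in pair 3. Of 7 measured genes of the endotoxin pathway 3 fell and 0 rose, Lbp, the plasma protein that loads endotoxin onto Cd14 (-1.34, SE 0.22), Ly96, the endotoxin-binding partner of Tlr4 (-1.06, SE 0.29), and Tlr4 itself (-0.72, SE 0.21). Lbp had 10.80, 10.76 and 10.56 in RAP 1, 2 and 3, against 12.02, 12.64 and 11.48 in Con 1, 2 and 3. All 3 were lower with RAP in pair 3 too (-0.92, -0.39 and -0.26), where Cd14 was higher (0.91), as a paired test selects for. Of the other 4, Tlr2, a receptor for bacterial lipoproteins (0.71), and the signalling genes Irak4 (0.36) and Myd88 (0.30) were higher in pair 3 like Cd14, and Traf6 stood at -0.02. The difference between Cd14 and these genes was not tested.

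Of 9 measured genes of haemoglobin and heme handling, the role in which Cd163 takes part, 2 fell and 0 rose. Hpx, the plasma heme carrier, fell by 1.87 (SE 0.58), with signals of 4.94 to 5.19 in RAP atria near the level of 5. Ftl1, the ferritin light chain, fell by 0.57 (SE 0.19), is given by the brightest of 6 probe sets, which all passed, and shares sequence with copies elsewhere in the genome. Hmox1, the heme oxygenase that macrophages induce after taking up haemoglobin, had 6.78, 5.97 and 7.49 in RAP 1, 2 and 3, against 7.53, 8.72 and 6.79 in Con 1, 2 and 3. Con 2 was its highest array and RAP 2 its lowest, as in 6 of the marker genes (7.86% of all genes), and the change was -0.93 (SE 0.66).

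Of 12 measured lysosome and phagosome genes only Lgals3, the lectin galectin-3, fell (-1.06, SE 0.28), and 0 rose. Ctss, a protease of antigen presentation, had a change of -0.44 (SE 0.48). Of 6 complement genes of macrophages, the 3 chains of C1q among them, only Vsig4 fell. C1qa had 9.12, 8.42 and 9.87 in RAP 1, 2 and 3, against 9.84, 10.79 and 8.63 in Con 1, 2 and 3, again with RAP 3 among the highest arrays (change -0.62, SE 0.69). Over the 8 lists without marker genes, 71 of 82 genes were measured, 11 fell (15.5%, beside 3.45% of all genes) and 0 rose, with an adjusted p of 0.756 in limma for each of the 11. All 11 were lower in each of the 3 pairs, as a paired test selects for. Of the other 60, 49 were lower in pairs 1 and 2 and higher in pair 3, the pattern of 9 of the 10 marker genes. This pattern was seen in 21.7% of all genes, and the lists were chosen with earlier results of these data known.

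Markers of 3 other cell types had median changes with the signs of the macrophage genes in each pair, though few or none passed the thresholds. Mast cells also use Fcer1g, and their markers (9 of 10 measured, 0 called, 8 lower) had median changes of -0.74, -2.0 and 1.29 in pairs 1, 2 and 3. Their summed log2 level ranged from 8.11 to 9.95 in RAP and from 8.56 to 10.68 in Con atria. Fibroblast markers (10 of 10 measured, 8 lower, of which Fbln1, a fibulin, passed) had -0.51, -1.14 and 0.51, with summed levels of 13.68 to 14.48 in RAP and 13.93 to 14.84 in Con atria. Neutrophil markers (8 of 10 measured, 0 called, 4 lower) had -0.07, -0.90 and 0.74, with summed levels of 7.89 to 9.38 in RAP and 8.11 to 10.20 in Con atria. Of the 8 measured neutrophil markers, 4, 6 and 1 were lower in pairs 1, 2 and 3, so pair 1 was evenly split. The neutrophil granule genes Camp and Ltf stayed at or under a signal of 5 on all 6 arrays.

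Cardiomyocyte markers had higher means with RAP, though 8 of 11 did not pass. Of the 11 measured, 3 rose, Ttn, Mybpc3 and Myh6, genes of the sarcomere, and 0 fell. Their medians were 0.40, 0.79 and 0.02 in pairs 1, 2 and 3, and their summed levels 16.06 to 16.33 in RAP and 15.87 to 16.10 in Con atria. Mesothelial markers (7 of 9 measured, of which Msln, Wt1 and Prg4 fell) were lower in 7, 5 and 5 of 7 genes in pairs 1, 2 and 3, with medians of -1.19, -0.70 and -0.41 and summed levels of 12.06 to 12.45 in RAP and 12.57 to 13.25 in Con atria. Dendritic markers (5 of 8 measured, 0 called) had mean deviations of -0.30 to 0.13 over the arrays and endothelial markers (9 of 10 measured, 0 called) of -0.35 to 0.23. Of 10 measured T, B and NK cell markers 1 rose (Gzmb) and 0 fell, and of 9 adipocyte markers 4 rose and 0 fell. Beside these counts, 2.94% of all genes rose and 3.45% fell, and the lists were chosen with earlier results known. The adipocyte markers had medians of 0.29, 0.41 and 0.85 in pairs 1, 2 and 3. They were highest in RAP 3 (1.10), the array in which Mrc1 and Cd163 stood above the other 8 marker genes. Next highest for them was Con 3 (0.43), where Mrc1 and Cd163 stood at -0.44 and the other 8 marker genes at -0.39. The share of these cell types in the macrophage result was not tested.

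**Figure D5:**
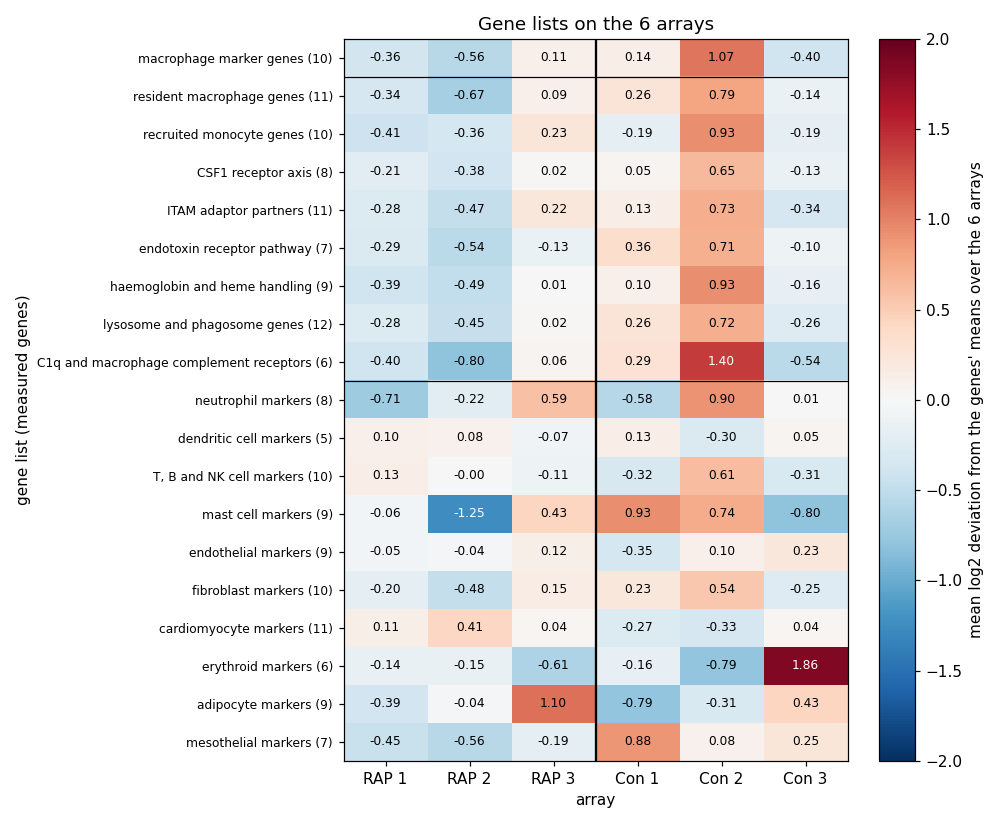
Mean log2 deviation of each gene list (rows, number of measured genes in brackets) from its genes' own means over the 6 arrays (columns). Con 2 is the highest array in the marker genes (1.07) and in the 8 lists below them. RAP 2 is the lowest in all of these but the recruited list, whose lowest is RAP 1 (-0.41). Among other cell types, Con 2 is also highest for neutrophil (0.90), T, B and NK cell (0.61) and fibroblast markers (0.54), and not for the rest. RAP 2 is also lowest for mast cell (-1.25), fibroblast (-0.48) and mesothelial markers (-0.56), and not for the rest.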

How the data were processed

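Left atrial RNA of 6 rats was hybridized to 1 array per rat. The authors ran robust multiarray averaging on the scans with the defaults of Partek Genomics Suite and deposited log2 signals per probe set, corrected for background and brought to a common distribution by quantiles. The software version is not given in the sources used here. This scaling hides any change that affects most genes at once. Array medians were 5.82 to 5.85. The number of arrays limits the precision.

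Of 29214 probe sets, 19907 exceeded 5 in at least 1 array and were fitted with limma 3.58.1 (R 4.3.3), with the pair as a block and no variance trend (residual degrees of freedom 2, prior 2.76). The SE is the moderated one, and p-values were adjusted by Benjamini and Hochberg over these probe sets. Gene symbols came from the array annotation (15310 probe sets with 1 symbol, 323 with several and 13581 with none, with 15279 of the 15310 found in the current RefSeq gene table), and a gene is its probe set with the highest mean. The fit was tested on simulated data. The methods describe pairs, and the labels give replicate numbers only, so rats of equal number were taken as a pair. With this numbering the methods' paired t-test passed 395 probe sets, the number the study reported. As a check, the deviations of the arrays of a pair from their group means were correlated at 0.22, -0.24 and -0.32 in pairs 1, 2 and 3. The correlation was negative in pairs 2 and 3, so this check did not show likeness between their rats. The study reports that a principal component analysis, not shown there, found its paired rats clearly similar.

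The marker genes and all lists were chosen with earlier results of these data known. Named are all 10 marker genes, 16 genes fixed by name and up to 4 genes per list past the thresholds. Also named are the 10 genes with the highest Pearson r to the mean of the marker genes. For each marker gene only some of its closest genes are named. The other measured genes of the endotoxin pathway and single genes of other cell types are named as well. Alternatives tried were no block, the methods' paired t-test, a variance trend with robust moderation, array weights, other filters (none or a signal above 6), 3 scalings, and leaving out each pair or array.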

Additional observations from a re-analysis of the deposited data

How the results depend on the processing

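The count of 0 marker genes past the thresholds held with no replicate block, by the methods' t-test, with a variance trend, under the other filters and under the 3 scalings, and became 4 with array weights. It was 0 to 10 when a pair was left out (10 without replicate 3) and 0 to 5 when 1 array was left out together with the block (5 without Con replicate 3). The median change was -0.995 to 0.10 and -0.88 to -0.10 in these settings, and the difference of Mrc1 and Cd163 from the other 8 was 0.07 to 0.37 and 0.03 to 0.41. Without pair 2 the sign turned in 6 genes, whose changes with 1 pair left out ranged from -1.10 to 0.35 (Cd163), -0.92 to 0.24 (Mrc1), -1.54 to 0.13 (Cd14), -0.93 to 0.12 (Lyz2), -0.86 to 0.11 (Adgre1) and -0.66 to 0.084 (Csf1r), and without Con 2 alone Adgre1 (0.09), Cd163 (0.06), Lyz2 (0.04), Mrc1 (0.01) and Csf1r (0.01) did. Of the 71 genes of the 8 lists 11 fell, against 12 without the replicate block, 4 by the methods' t-test, 30 with array weights, 5 to 45 without a pair and 9 to 31 without an array and the block. Over all probe sets 1180 passed (1335 without the replicate block), against 395 by the methods' t-test, 4393 with array weights, 278 to 3887 without a pair and 751 to 2480 without an array and the block. The cause of these differences was not tested. Each marker gene has 1 probe set, so averaging probe sets could not change a value. All signals of the 10 genes lay above 5 on every array.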

Other observations

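Single marker genes had their own closest genes by Pearson's r over the 6 arrays, given as a description with no test, since 6 points that share arrays with 1 far from the rest give high values for many genes. Cd68 was followed most closely by Unc93b1, which carries nucleic acid receptors of the Toll-like family to endosomes (r = 0.998), and Csf1r by Alox5ap, the partner of 5-lipoxygenase in leukotriene synthesis (r = 0.999). Cd163 was followed by Col5a3, a collagen chain (r = 0.996), and Fcna, a ficolin of macrophages and of the lectin pathway of complement (0.995), and Mrc1 by Rab3il1 (0.988) after Or52ad1, an olfactory receptor gene near the signal level of 5 (0.993). Next to Adgre1 (0.997) and Lyz2 (0.994) stood Ptges, the inducible prostaglandin E synthase. Cd14 had Rab32, a GTPase of lysosome-related organelles (0.998), and Gna15, a G protein subunit of blood cells (0.996). Aif1 had Nfkbie, an inhibitor of NF-κB (0.996), Fcer1g had Gmfg, an actin regulator of leukocytes (0.999), and Tyrobp had the transcription factor genes Nfil3 and Spi1 (both 0.994). Without Con 2 these values were between 0.964 and 0.998.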
